A study of Macaca mulatta with 30 samples.

Results

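The cadherins and protocadherins described here are the genes of both count tables whose Ensembl rhesus symbol is CDH or PCDH followed by a number, or a protocadherin cluster name; genes of the CDHR group were left out. This gave 39 genes among the 20572 gene identifiers that the lung and hippocampus tables share. A gene was tested in lung if at least 3 libraries held at least 7 of its reads, and in hippocampus if at least 5 libraries did. The filter kept 35 of the 39 members in lung and 37 in hippocampus, 33 of them in both tissues and 39 in at least 1. It kept 17644 of 30246 identifiers in lung and 17390 of 32386 in hippocampus. A symbol was found for 52.1% of the lung identifiers and 54.4% of the hippocampus identifiers, so members without a symbol in this annotation are missing.

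Cadherins are calcium-dependent adhesion proteins: classical cadherins hold neighbouring cells together at adherens junctions and bind catenins, which tie them to actin. Delta protocadherins are more weakly adhesive and act on actin and cell sorting, and the clustered protocadherins give neurons a surface identity. In lung, E-cadherin joins epithelial cells, VE-cadherin joins endothelial cells and cadherin-11 marks mesenchyme, while in brain N-cadherin and the protocadherins shape neuroepithelium, axons and synapses.

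The study treated time-mated pregnant rhesus macaques by intramuscular injection and sequenced RNA of fetal lung and hippocampus, to set a lower dose of betamethasone against the clinical dose. All lung labels give wild type fetuses of gestational day 124 to 130, in 5 groups of 3. Controls (fetuses 15-92, 15-101 and 16-113) had saline. The clinical drug was Celestone at 0.25 mg/kg, a mix of betamethasone phosphate and acetate, with delivery 4 h later (15-81, 15-85 and 15-97) or 5 days later (16-115, 16-120 and 16-126). The low dose was betamethasone acetate alone at 0.125 mg/kg, called Beta-Ac here, with delivery 6 h later (16-123, 16-131 and 17-254) or 5 days later (16-128, 16-130 and 16-136). Hippocampus labels give no genotype and gestational ages of 130 to 136 days, in 3 groups of 5, all delivered 5 days after injection. These were saline controls (CTL092, CTL101, CTL113, CTL209 and CTL212), Beta-Ac (BAC128, BAC130, BAC136, BAC235 and BAC237) and the clinical drug (CEL115, CEL120, CEL126, CEL238 and CEL245). Library names set the hippocampus groups, because the treatment and dose fields there name the drugs the other way round. For the 9 animals with both tissues, the lung labels match the hippocampus library names. The labels of those animals give different age ranges for the 2 tissues.

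Reads counted on genes ranged from 14073002 (15-85) to 45033799 (15-81) per library in lung, both in the clinical group at 4 h. In hippocampus they ranged from 18280762 to 29301058. Values are CPM, a gene's reads scaled to the size of its library by TMM, and fold changes are log2 values with standard errors (SE) or 95% intervals. A gene was called when edgeR gave a fold change of at least 1.5 in either direction, p under 0.05 and an adjusted p under 0.1 over all genes tested in that tissue. Counts of different genes depend on their length, so levels were compared only within a gene.

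The tissues matched their markers. The lung epithelium list, with 7 of 8 genes in the table and SFTPC with the most reads, summed to between 6511 and 16885 CPM in the lung libraries, and SFTPC had from 0 to 11 reads in hippocampus. The hippocampal neuron list, with 8 of 8 genes in the table and SYT1 with the most reads, summed to between 2562 and 4312 CPM in hippocampus and to between 9.27 and 22.5 CPM in lung.

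A hippocampus library stood apart. Markers of choroid plexus, the epithelium that makes cerebrospinal fluid, had 4 of 7 genes in the table, CLIC6 with the most reads and none at 0 reads. They summed to 1084 CPM in control CTL212 and to between 7.81 and 29.2 CPM in the other 14 libraries. Control CTL212 also had the highest sums for markers of meninges (383 CPM), ependyma (220 CPM), endothelium (363 CPM) and mesenchyme (1249 CPM). Of the members tested, CDH3, CDH5, CDH6 and CDH23 were highest there of all 15 libraries, and their changes are given with and without it. PCDH19 and PCDHGB5 were among the members lowest there. BAC235 also stood apart, with the lowest values of the 15 for several protocadherins, PCDH9, PCDH17, PCDH11X and PCDH18 among them. In lung, 17-254 had the highest sum of red blood cell markers (4 of 8 genes in the table, HBA with the most reads), at 834 CPM against 45.7 to 410 CPM in the other 14 libraries. The sequencing runs named in the hippocampus labels also split the groups: controls CTL092 and CTL101 came from a run of their own, CTL209 from another, and all drug libraries from 2 further runs. Of the controls, only CTL113 and CTL212 were in those 2 runs, so any comparison within runs rests on them, and for the other controls run and treatment cannot be told apart.

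The 39 members fell into 7 subfamilies. Type I classical cadherins had 5 members, type II classical cadherins 13, and other cadherins 5. Delta-1 protocadherins had 4 members, delta-2 protocadherins 5, clustered protocadherins 5 and other unclustered protocadherins 2. RefSeq's annotation of the T2T-MMU8v2.0 assembly, a later build than the counts used, placed 37 of them and had no entry under the symbols PCDHB15 and PCDHGB5. Chromosome 6 held 10 members, with CDH18, CDH12, CDH10, CDH9 and CDH6 within 20799063 to 32681602, and PCDHAC2, PCDHB1, PCDHB4, PCDH1 and PCDH12 within 149809266 to 150810728. Chromosome 20 held 8, among them the neighbours CDH3 (64232302 to 64291817) and CDH1 (64331199 to 64435985). The clustered protocadherins share constant exons, so reads on those exons cannot be assigned to a member with certainty.

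Of the 4 members not tested in lung, PCDH8 had 0 reads in all 15 libraries, where 3 reads would be from 0.0695 to 0.224 CPM. CDH9 had at most 1 read, CDH12 at most 7 and PCDHB1 at most 9 in a lung library. In hippocampus the same PCDH8 was counted at 96.5 to 267 CPM, CDH9 at 37.6 to 70.4 CPM and CDH12 at 13.2 to 41.8 CPM. The members not tested in hippocampus were PCDH7, with 0 to 5 reads against 92 to 958 in lung, and CDH16, the kidney cadherin, with 12 reads in control CTL212, 1 in control CTL092 and 0 in the other 13 libraries. The lung and hippocampus counts came from separate tables that share only part of their gene identifiers. The annotation release behind each table is not given in the sources used here, so for PCDH7 and PCDH8 a lack of RNA and a difference in annotation cannot be told apart. Differences between tissues were not tested.

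Among epithelial cadherins, E-cadherin (CDH1) drew the most reads of the type I members in lung and stood at 63.4 ± 12.8 CPM (SD, n = 3) in controls. In hippocampus CDH1 stood at 2.51 ± 1.21 CPM (SD, n = 5) in controls. P-cadherin (CDH3), found in basal and placental epithelium, had 28.9, 34.6 and 14.6 CPM in lung controls. CDH16 was at 8.72 ± 2.38 CPM (SD, n = 3) and the gut cadherin CDH17 at 1.66 ± 0.445 CPM (SD, n = 3) in the same lungs. In hippocampus controls CDH17 was at 0.554 ± 0.296 CPM (SD, n = 5), and it was called in no comparison of either tissue.

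N-cadherin (CDH2), which joins neural and mesenchymal cells, drew the most reads of the type I members in hippocampus, with 220 ± 37.2 CPM in controls, 221 ± 28.9 after Beta-Ac and 201 ± 24.5 after the clinical drug (SD, n = 5 each). Its groups overlapped. VE-cadherin (CDH5), of endothelial junctions, drew the most reads of the type II members in lung, with 873 ± 48.2 CPM (SD, n = 3) in controls. In hippocampus CDH5 stood at 30.7 ± 9.19 CPM in controls, 31.8 ± 6.57 after Beta-Ac and 32.6 ± 3.27 after the clinical drug (SD, n = 5 each), again with overlap. Its log2 fold change for the clinical drug was 0.09 with control CTL212 and 0.24 without it, and for Beta-Ac 0.05 and 0.20. Cadherin-11 (CDH11), of mesenchyme and neural progenitors, drew the most reads of the type II members in hippocampus, with 134 ± 39.0, 120 ± 15.9 and 156 ± 25.5 CPM in the same order. None of those differences was called.

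T-cadherin (CDH13), a GPI-anchored cadherin of vessels and neurons, drew the most reads of the other cadherins in both tissues and stood at 153 ± 35.4 CPM in lung controls (SD, n = 3). PCDH1, a delta-1 protocadherin of airway epithelium and neurons, stood at 111 ± 13.9 CPM in lung controls (SD, n = 3) and 252 ± 27.1 CPM in hippocampus controls (SD, n = 5). PCDHGB5, of the gamma cluster, was at 539 ± 21.7 CPM in lung controls (SD, n = 3) and 1253 ± 135 CPM in hippocampus controls (SD, n = 5). Neither PCDH1 nor PCDHGB5 was called in any comparison. PCDH19, an X-linked delta-2 protocadherin of neurons, drew the most reads of its subfamily in hippocampus, with 227 ± 74.8 CPM in controls (SD, n = 5), and its lung counts were at most 38 reads. Without control CTL212, hippocampus controls had 257 ± 39.9 CPM of PCDH19 and 1313 ± 18.3 CPM of PCDHGB5 (SD, n = 4).

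The comparison of clinical drug at 4 h with control asked what the clinical dose changed in lung soon after injection. There 7.4% of all genes tested were called (1306 of 17644), and 6 of 35 members were. DESeq2 called the same 6 members and 7.35% of all genes. Of the 6, 5 fell, against 3.94% of all genes called lower, and 1 rose, against 3.46% called higher. The median log2 fold change was -0.23 over the members and 0.02 over all genes tested. Lower values were seen for 22 of 35 members and 47.4% of all genes. In lung tissue, fewer cells of a type and less RNA per cell cannot be told apart.

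Delta-2 protocadherins carried 3 of the 5 members that fell; of the 4 tested, these 3 were called, and the median of the 4 was -1.18. PCDH18 (ENSMMUG00000008362), whose tail binds the adaptor Disabled-1, had 182, 217 and 185 CPM in controls 15-92, 15-101 and 16-113. At 4 h it had 69.2, 64.6 and 89.9 CPM in fetuses 15-81, 15-85 and 15-97. All 3 treated lungs lay below all 3 controls, and below the other 9 lungs too. The log2 fold change was -1.38, with a 95% interval of -1.74 to -1.03 and an adjusted p of 0.000153.

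PCDH17 (ENSMMUG00000022272), which links adhesion to actin assembly through the WAVE complex, had 23.9, 53.1 and 59.1 CPM in the controls in the same order. At 4 h it had 26.8, 14.7 and 18.3 CPM. The groups overlapped, because control 15-92 was lower than 15-81. PCDH17 had a log2 fold change of -1.17, SE 0.323, with an adjusted p of 0.0327. That call ended in 4 of 12 alternatives: a fit of the compared groups alone, and the fits without 15-85 (-1.01), without control 15-101 (-1.05) or without control 16-113 (-0.93). Its adjusted p ran from 0.00404 to 0.133 over the 12.

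PCDH10 (ENSMMUG00000023149), another delta-2 protocadherin that binds the WAVE complex, had 5.47, 4.79 and 9.04 CPM in controls, from 92, 70 and 180 reads. At 4 h it had 2.96, 3.36 and 2.13 CPM, from 128, 45 and 34 reads. All treated values were lower than all control values. On the log2 scale the change was -1.19, SE 0.371, with an adjusted p of 0.0530. Without control 16-113 it was -0.86, and without 15-97 it was -1.05, and neither was called; the adjusted p ran from 0.0216 to 0.214 over 12 alternatives. The fourth delta-2 member tested, PCDH19, had only 2 to 38 reads in lung.

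PCDH12 (ENSMMUG00000006291), also named VE-cadherin-2, is a protocadherin of endothelial contacts. It had 244.7, 264 and 234 CPM in controls 15-92, 15-101 and 16-113 and 102, 69.2 and 117 CPM in 15-81, 15-85 and 15-97. Every value at 4 h was lower than that of any other lung library. The log2 fold change was -1.36, with a 95% interval of -1.72 to -1.01 and an adjusted p of 0.000173. PCDH18 and PCDH12 were called in all 12 alternatives, with the highest adjusted p at 0.00183 for PCDH18 and 0.00466 for PCDH12.

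VE-cadherin (CDH5, ENSMMUG00000023525) had 885, 914 and 820 CPM in controls and 606, 536 and 803 CPM at 4 h. The groups were separate, with 15-97 close to control 16-113. CDH5 had a log2 fold change of -0.43 with an adjusted p of 0.0695, short of the fold threshold, so it was not called; without 15-97 it was. Endothelial markers, with 7 of 8 genes in the table, PECAM1 with the most reads and none at 0 reads, summed to 2963, 3739 and 3402 CPM in controls and to 3154, 2961 and 3733 CPM at 4 h. In that list 5 of 7 genes were lower (median -0.21) and 1 of 7 was called, the receptor KDR, with a log2 fold change of -1.16 and an adjusted p of 0.000132. Whether the endothelial share of these lungs had a part in the PCDH12 result was not tested.

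CDH11 (ENSMMUG00000005520), the mesenchymal type II cadherin, had 279, 237.1 and 234.8 CPM in controls and 97.2, 115 and 170 CPM at 4 h. The groups did not overlap. CDH11 had a log2 fold change of -0.98, with a 95% interval of -1.54 to -0.41 and an adjusted p of 0.0294, and CDH11 was called in all 12 alternatives (adjusted p 0.00463 to 0.0972). Mesenchyme and smooth muscle markers, with 6 of 8 genes in the table, COL1A1 with the most reads and none at 0 reads, summed to 7404, 6515 and 8426 CPM in controls and to 7910, 7052 and 7695 CPM at 4 h. Of the 6 marker genes, 0 were called by edgeR in that comparison. CDH11 was the 1 type II member called of 11 tested, and its subfamily had a median of -0.47.

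PCDH9 (ENSMMUG00000005620), a delta-1 protocadherin known from neurons, was the member that rose. It had 1.78, 2.53 and 3.26 CPM in controls, from 30, 37 and 65 reads, and 5.09, 4.86 and 5.13 CPM at 4 h, from 220, 65 and 82 reads. All 3 treated lungs were above all controls. On the log2 scale the change was 0.99, SE 0.256, with an adjusted p of 0.0249. The call ended without control 15-92, where the value was 0.77, and in a fit of the compared groups alone; the adjusted p ran from 0.00478 to 0.124 over 12 alternatives.

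Type I classical cadherins, other cadherins and clustered protocadherins had 0 of 5, 0 of 5 and 0 of 4 members called by edgeR and by DESeq2 at 4 h, with 0 of each at an unadjusted p under 0.05. E-cadherin (CDH1) had 76.2, 50.7 and 63.4 CPM in controls and 84.9, 63.8 and 59.9 CPM at 4 h, and the groups overlapped. CDH24, CDH20 and PCDH7 had an unadjusted p under 0.05 and were not called, with log2 fold changes of -0.50, -1.54 and -0.76. Over the 35 members, values ran from -1.54 to 0.99. The members' reads together made up 2719, 2704 and 2593 CPM of the control libraries and 1867, 1745 and 2274 CPM of those at 4 h.

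**Figure D1:**
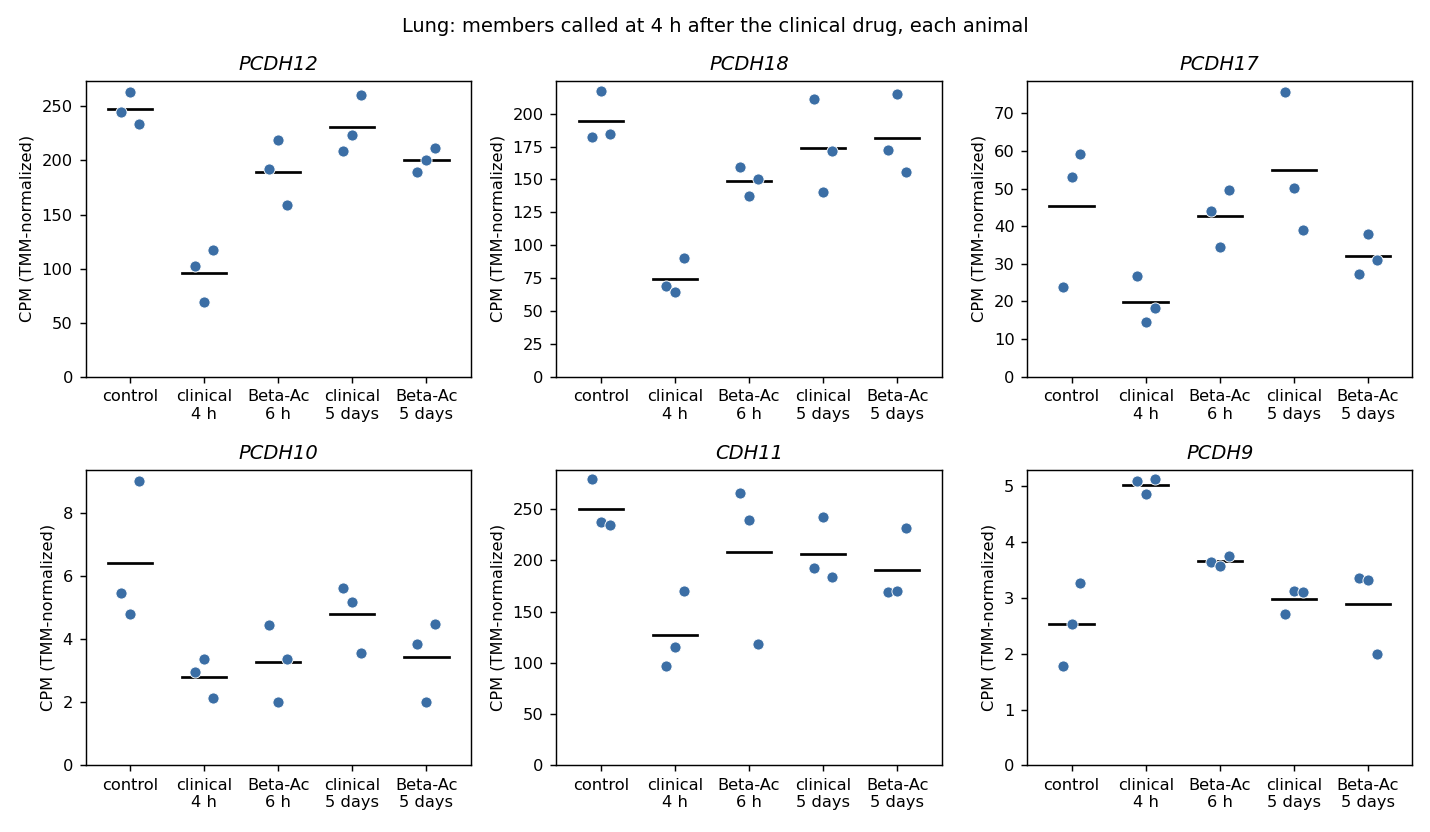
CPM of PCDH12, PCDH18, PCDH17, PCDH10, CDH11 and PCDH9 in each of the 15 lung libraries (points, with a line at each group mean), by group. PCDH12 and PCDH18 at 4 h lie below every other library, at 69.2 to 117 CPM and 64.6 to 89.9 CPM.

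Other cell markers also moved at 4 h, and their part in the results was not tested. Leukocyte markers, with 5 of 5 genes in the table, CD74 with the most reads and MARCO at 0 to 4 reads, summed to 144, 149 and 104 CPM in controls and 95.3, 37.7 and 87.2 CPM at 4 h, and 2 of 4 were called lower (median -1.02). Lung epithelium markers summed to 6707, 6511 and 9588.5 CPM in controls and to 16885, 10893 and 13566 CPM at 4 h, and 3 of 7 were called higher (SFTPC, ABCA3 and CLDN18). None of the 7 was at 0 reads. CDH1, the epithelial cadherin, was not called in the same libraries.

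The partners of cadherins were described from lists of genes. In clinical drug at 4 h against control, edgeR called 0 of 9 catenins (median -0.13), 1 of 8 junction adaptors and nectins (median -0.02), 0 of 8 desmosome genes (median 0.20), 2 of 13 other cadherin superfamily genes (median -0.20) and 0 of 11 regulators (median 0.06), beside a median of 0.02 over all genes. The adaptor called was NECTIN1, a nectin of adherens junctions, at 8.04 ± 1.09 CPM in controls and 4.35 ± 1.06 CPM at 4 h (SD, n = 3 each), with a log2 fold change of -0.90 and an adjusted p of 0.0523. The superfamily genes called were FAT4, of planar polarity, at -0.59 (adjusted p 0.0265), and the calsyntenin CLSTN3 at -0.62 (adjusted p 0.0122).

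Beta-Ac at 6 h was compared with the same 3 controls, to ask what the low dose changed early. EdgeR called 0.442% of all genes (78 of 17644) and 0 of 35 members, and DESeq2 called 1.4% of all genes (247) and 0 members. With a library left out, the edgeR share ran from 0.0511% (without control 15-92) to 1.2% (without 16-131), with 0 members called. The values that follow are from the fit with all libraries. At an unadjusted p under 0.05 there were 8 members, beside 11.5% of all genes. The median log2 fold change was -0.09 over the members and 0.02 over all genes, and 22 of 35 members and 47.3% of all genes were lower. In the 5 partner lists edgeR called 0 genes.

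Side by side with 4 h, PCDH18 had 159, 137 and 150 CPM in fetuses 16-123, 16-131 and 17-254 at 6 h after Beta-Ac, all below the controls. This gave a log2 fold change of -0.39 with an adjusted p of 0.304. PCDH12 had 192, 219 and 159 CPM, again all below the controls, with -0.38 and an adjusted p of 0.308. PCDH10 had 4.45, 2.02 and 3.38 CPM, with the same separation from controls. Its value was -0.98 with an adjusted p of 0.275, and without control 16-113 it was -0.65. PCDH9 had 3.64, 3.57 and 3.76 CPM in the same fetuses, all above the controls. PCDH17 (44.0, 34.6 and 49.6 CPM) and CDH11 (265, 240 and 119 CPM) overlapped with the controls.

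CDH26, an epithelial cadherin that binds integrins, had 5.65, 12.2 and 6.53 CPM in controls and 19.9, 16.5 and 22.3 CPM at 6 h after Beta-Ac. The groups did not overlap, and the log2 fold change of 1.27 had an adjusted p of 0.275, so it was not called. Airway epithelium markers (4 of 5 genes in the table, SCGB3A2 with the most reads) summed to 88.4, 175 and 63.0 CPM in controls and 206, 225 and 472 CPM at 6 h, with 0 of 4 genes called by edgeR and a median of 1.42. Their part in the CDH26 values was not tested. CDH10, a type II cadherin known from brain, had 5.23, 3.29 and 4.22 CPM in controls and 4.25, 5.02 and 23.4 CPM at 6 h. The high library was 17-254: the log2 fold change was 1.35 with it and 0.13 without it, and neither was called. Red blood cell markers, whose sum was highest in that library, were lower for 0 of 4 genes (median 1.25). Of them 0 were called by edgeR, and their part in the CDH10 values was not tested. PCDH15, a tip-link protocadherin of hair cells, stood at 0.75 with an adjusted p of 0.317.

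The drugs were then compared directly in early lung, clinical drug at 4 h minus Beta-Ac at 6 h; drug mix, dose and time differ together there and cannot be told apart. EdgeR called 6.74% of all genes (1189) and 6 of 35 members, 5 lower beside 4.11% of all genes and 1 higher beside 2.62%. DESeq2 called the same 6 and CDH26, beside 6.39% of all genes; by edgeR CDH26 was at -1.17 with an adjusted p of 0.111. The median was -0.21 over the members and -0.02 over all genes. Values were lower for 24 of 35 members and for 52.7% of all genes. Without 15-85, 3 members and 3.79% of all genes were called, and without 17-254, 3 members and 4.86%. In the same comparison edgeR called 3 of 4 leukocyte markers lower (median -1.08) and 2 of 4 red blood cell markers lower (median -2.02). It also called 1 of 7 endothelial markers lower and 1 of 2 mesothelial markers higher. Airway epithelium markers were lower for 4 of 4 genes (median -0.96), with 0 called. Their part in the members' values was not tested.

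PCDH18 was lower at 4 h of the clinical drug than at 6 h of Beta-Ac in every library, with a log2 fold change of -1.0, a 95% interval of -1.35 to -0.64 and an adjusted p of 0.00440. PCDH12 gave -0.98, with an interval of -1.33 to -0.63 and an adjusted p of 0.00452, and again no overlap. Both were called in all 12 alternatives, with an adjusted p of at most 0.0467 for PCDH18 and 0.0887 for PCDH12.

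PCDH17 had 44.0, 34.6 and 49.6 CPM at 6 h after Beta-Ac, all above the libraries at 4 h after the clinical drug. The log2 fold change was -1.08 with an adjusted p of 0.0469. The call ended without 15-85 (-0.91), 15-97 (-1.02) or 17-254 (-0.96), and the adjusted p ran from 0.0127 to 0.145. CDH11 had 265, 240 and 119 CPM at 6 h, and 17-254 lay within the range at 4 h. The difference was -0.71 with an adjusted p of 0.0890. That call ended in 7 of 12 alternatives: no read filter, the compared groups alone, Benjamini-Hochberg adjustment, and the fits without 15-81 (-0.56), 15-85 (-0.64), 16-123 (-0.49) or 16-131 (-0.60), with the adjusted p from 0.0180 to 0.239.

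CDH3, the P-cadherin (ENSMMUG00000010393), had 13.2, 23.9 and 14.3 CPM at 4 h after the clinical drug and 33.1, 34.7 and 34.0 CPM at 6 h after Beta-Ac. Controls had 28.9, 34.6 and 14.6 CPM and overlapped with both. The log2 fold change between the drugs was -1.0 with an adjusted p of 0.0528. The call ended without 15-97 (-0.90) or 17-254 (-1.0), and the adjusted p ran from 0.0215 to 0.132.

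CDH2, the N-cadherin (ENSMMUG00000015178), had 5.65, 9.05 and 4.01 CPM at 4 h, from 244, 121 and 64 reads, and 2.93, 2.97 and 1.25 CPM at 6 h after Beta-Ac, from 58, 84 and 26 reads. The groups were separate and the controls, at 3.09, 1.99 and 5.42 CPM, overlapped with both. It was the member called higher, with a log2 fold change of 1.37 and an adjusted p of 0.0686. The call ended in 5 of 12 alternatives: no read filter, the compared groups alone, Benjamini-Hochberg adjustment, and the fits without 15-85 (1.01) or 17-254 (1.07), with the adjusted p from 0.0398 to 0.214. NECTIN1 was the partner gene called, at -0.72 with an adjusted p of 0.0993.

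**Figure D2:**
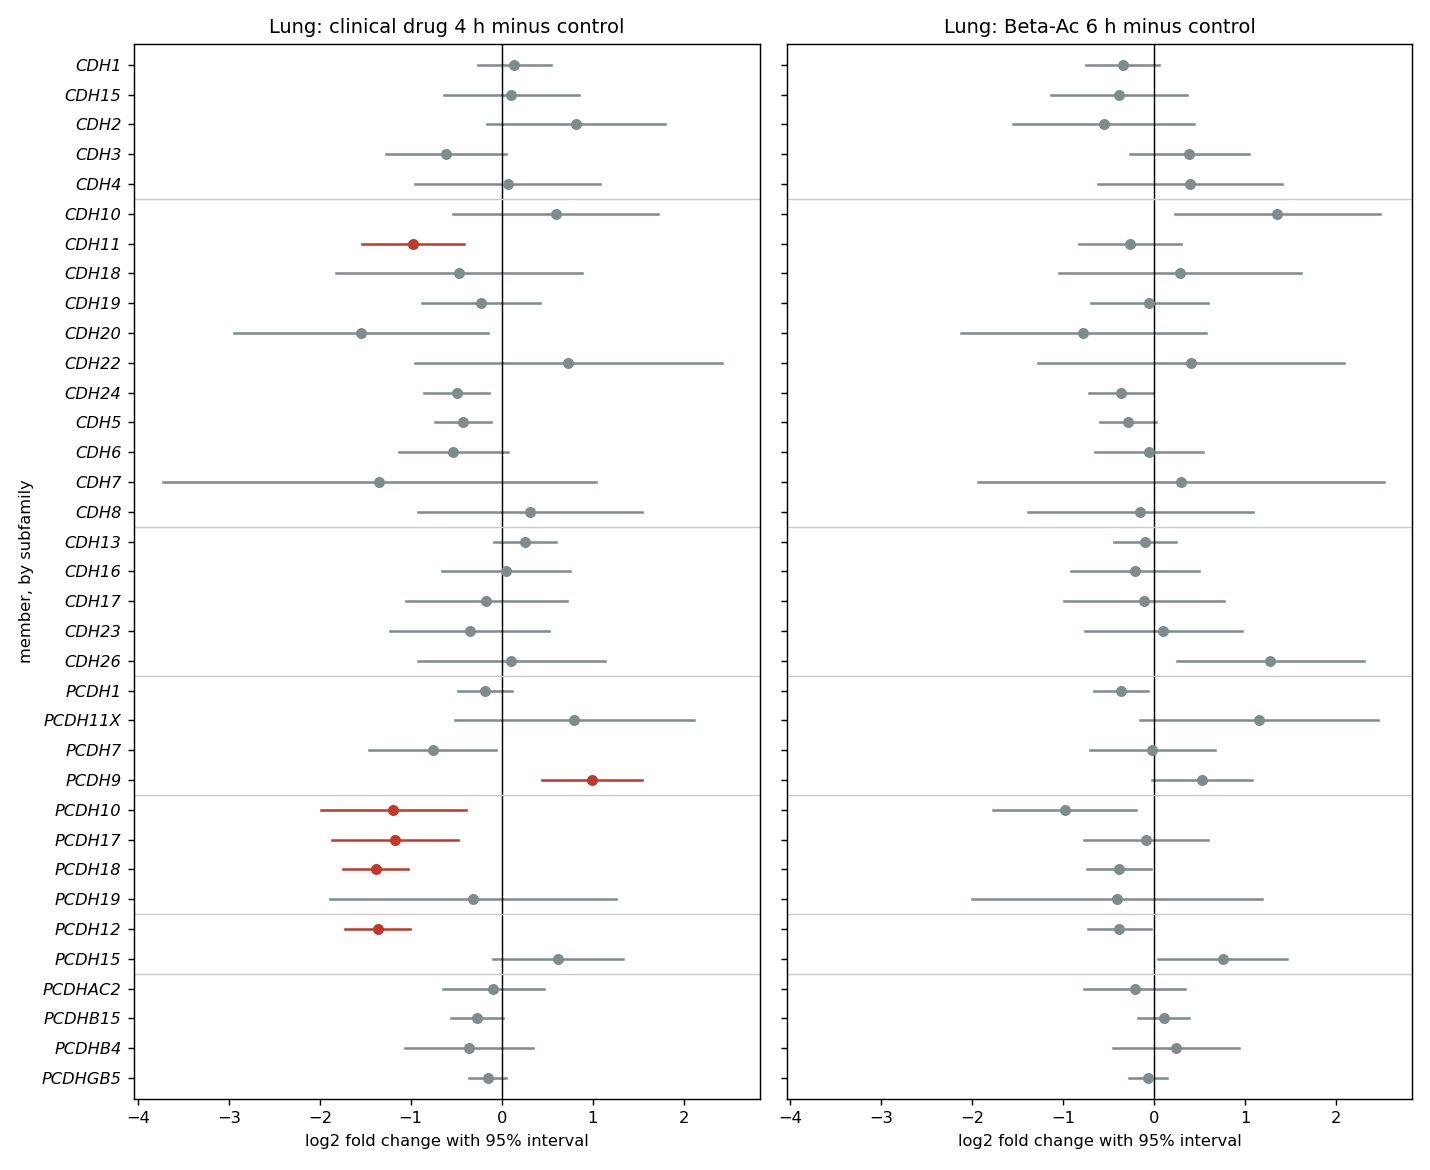
Log2 fold change with 95% interval of the 35 members tested in lung, for clinical drug at 4 h minus control and Beta-Ac at 6 h minus control, which share the controls; red marks called members. In the left comparison 6 members are red and in the right 0.

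At 5 days the question was whether changes lasted. For clinical drug at 5 days minus control, edgeR called 0% of all genes (0 of 17644) and 0 of 35 members. DESeq2 called 0.0907% of all genes and 0 members, and 0 members had an unadjusted p under 0.05, beside 4.39% of all genes. PCDH18 then had 211, 140 and 172 CPM in 16-115, 16-120 and 16-126, overlapping with controls, and a log2 fold change of -0.16 (95% interval -0.51 to 0.19). PCDH12 had 208.5, 224 and 261 CPM, also overlapping, with -0.10 (95% interval -0.45 to 0.25). The member median was -0.08 and that of all genes 0.00.

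For Beta-Ac at 5 days minus control, edgeR called 0.00567% of all genes (1 of 17644) and 0 members, and DESeq2 called 0.227% of all genes and 0 members. An unadjusted p under 0.05 was found for 3 members and 6.42% of all genes. These were PCDH10 at -0.90 (adjusted p 0.722), CDH5 at -0.31 and CDH19, a cadherin of Schwann cell precursors, at -0.69 (both with an adjusted p of 0.734). PCDH10 had 3.87, 2.01 and 4.50 CPM in 16-128, 16-130 and 16-136, all below controls, and without control 16-113 its value was -0.57. Without control 15-101 the CDH19 value was -0.42. Endothelial markers were lower for 7 of 7 genes (median -0.32), with 0 called by edgeR, and their part in the CDH5 value was not tested. Here 25 of 35 members and 48.4% of all genes were lower, with medians of -0.15 and 0.01.

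Between the drugs at 5 days, edgeR called 0% of all genes and 0 members, and DESeq2 called 0.0453% of all genes and 0 members. At an unadjusted p under 0.05 there were 2 members and 3.15% of all genes. CDH10 had 4.38, 9.24 and 10.4 CPM after the clinical drug and 1.99, 2.35 and 2.10 CPM after Beta-Ac. The groups were separate, and the log2 fold change of 1.90 had an adjusted p of 0.999. PCDH17 had 75.6, 50.1 and 39.1 CPM after the clinical drug and 27.3, 37.8 and 31.0 CPM after Beta-Ac, with 0.78 and an adjusted p of 0.999. Without 16-115 the PCDH17 value was 0.48.

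The change over time after the clinical drug, 5 days minus 4 h, uses the same libraries at 4 h as the comparisons above. EdgeR called 10.4% of all genes (1833) and 7 of 35 members, 5 higher beside 5.92% of all genes and 2 lower beside 4.47%. DESeq2 called 7 members, with PCDH7 in place of CDH8, beside 9.6% of all genes. Markers moved as well, and their part was not tested: 3 of 4 leukocyte markers were called higher (median 1.07), 2 of 7 lung epithelium markers lower, and endothelial markers 1 higher and 1 lower of 7. PCDH12 rose by 1.26 (95% interval 0.91 to 1.62, adjusted p 0.000242) and PCDH18 by 1.22 (0.87 to 1.58, adjusted p 0.000290). PCDH17 rose by 1.45 (0.75 to 2.14, adjusted p 0.00829), and its 5-day value of 75.6 CPM in 16-115 was the highest of the 15 lungs. These 3 were called in all 12 alternatives and had no overlap between the time points.

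CDH11 rose by 0.70 (adjusted p 0.0745), with 192, 243 and 184 CPM at 5 days, and PCDH9 fell by 0.75 (adjusted p 0.0516), with 2.72, 3.13 and 3.11 CPM at 5 days. Neither overlapped with 4 h. The CDH11 call ended in 7 of 12 alternatives (adjusted p 0.0387 to 0.219) and the PCDH9 call in 6 (adjusted p 0.0320 to 0.155). Each 5-day library, left out in turn, was enough to end both calls, and so was 15-85; 15-81 ended the CDH11 call and 15-97 the PCDH9 call. Their values without those libraries ran from 0.55 to 0.79 for CDH11 and from -0.79 to -0.69 for PCDH9.

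CDH8 and CDH20 are type II cadherins of the developing nervous system with few reads in lung. CDH8 had 28, 9 and 22 reads at 4 h (0.648, 0.673 and 1.38 CPM) and 4, 15 and 6 reads at 5 days (0.184, 0.506 and 0.230 CPM). The values did not overlap, and CDH8 fell by 1.49 (adjusted p 0.0869), a call that ended in 8 of 12 alternatives; without 15-97 the value was -1.05 and without 16-120 -2.06. CDH20 had 54, 2 and 30 reads at 4 h (1.25, 0.150 and 1.88 CPM) and 40, 65 and 163 reads at 5 days (1.84, 2.19 and 6.26 CPM). It overlapped between the times and rose by 1.61 (adjusted p 0.0897), a call that ended in 7 of 12 alternatives. Without 16-126, its highest library, the CDH20 value was 0.87, and without 15-85, its lowest, 1.17. The adjusted p ran from 0.0678 to 0.248 for CDH8 and from 0.0678 to 0.340 for CDH20. Among partner genes, NECTIN1 rose by 1.02 (adjusted p 0.0216) and the desmosomal plakophilin PKP2 fell by 0.62 (adjusted p 0.0808).

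For Beta-Ac at 5 days minus 6 h, edgeR called 0.261% of all genes (46) and 0 of 35 members. At an unadjusted p under 0.05 there was 1 member, beside 7.91% of all genes, and DESeq2 called that member, CDH10, and 1.05% of all genes (185). It was lower in all 3 lungs at 5 days than in all 3 at 6 h, with a log2 fold change of -2.34 and an adjusted p of 0.132, and without 17-254 the value was -1.11. The adjusted p ran from 0.00173 to 0.559 over 12 alternatives. It was called in 4 of them: DESeq2, no read filter, and the fits without 16-123 or without 16-131. Red blood cell markers, whose sum was highest in 17-254, were lower for 4 of 4 genes (median -1.26), with 0 called by edgeR. Their part in the CDH10 value was not tested.

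In hippocampus the comparisons asked what either drug changed after 5 days. For the clinical drug minus control, edgeR called 7.86% of all genes (1366 of 17390) and 4 of 37 members, 1 higher beside 2.5% of all genes and 3 lower beside 5.35%. DESeq2 called 4 members, with CDH6 in place of CDH3, beside 8.08% of all genes. The median was -0.13 over the members and -0.02 over all genes, and 21 of 37 members and 51.9% of all genes were lower. With groups taken from the treatment field in place of the library names, 0 members and 0% of all genes were called for the clinical drug, and the same 4 members and 7.86% for Beta-Ac. That grouping only swaps the drug names, so its clinical drug fit is the Beta-Ac fit given below and is no separate check. The ranges over alternatives for either drug against control include it. Fitted within the 2 runs that hold all groups, 1 member, CDH23, was called, beside 1.33% of all genes. With run as a block, 3 members (CDH23, CDH3 and CDH6) and 5.51% of all genes were called.

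CDH23 (ENSMMUG00000014733), the tip-link partner of PCDH15 in hair cells, had 12.3, 7.27, 9.02, 8.73 and 34.0 CPM in controls CTL092, CTL101, CTL113, CTL209 and CTL212. It had 4.37, 3.71, 5.10, 4.99 and 6.92 CPM in clinical drug libraries CEL115, CEL120, CEL126, CEL238 and CEL245. All treated libraries were below all controls, and control CTL212 was far above the rest. CDH23 had a log2 fold change of -1.51, SE 0.359, with an adjusted p of 0.0193. Without control CTL212 it was -0.89 and still called, and the 4 controls left averaged 9.32 ± 2.11 CPM (SD, n = 4). With run as a block it was -1.96 and within the 2 shared runs -2.06, both called and both resting on controls CTL113 and CTL212. The adjusted p ran from 0.000900 to 0.268 over 20 alternatives. The call ended under the treatment-field groups (-1.07), where the Beta-Ac libraries take the place of the clinical drug.

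CDH13 (ENSMMUG00000020114), the T-cadherin, had 139, 81.9, 87.1, 155 and 47.8 CPM in the controls and 52.2, 58.8, 37.7, 42.8 and 40.1 CPM after the clinical drug. Control CTL212, the lowest control, fell inside the treated range, and the other 4 controls were above it. On the log2 scale the change was -1.14, SE 0.292, with an adjusted p of 0.0244. Without control CTL212 it was -1.32 (adjusted p 0.0133) and still called. With run as a block it was -0.54 and within the 2 shared runs -0.53. Neither was called, and both rest on controls CTL113 and CTL212. The highest controls, CTL092 and CTL209, came from the runs without drug libraries. The adjusted p ran from 0.00233 to 0.602 over 20 alternatives.

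CDH19 (ENSMMUG00000013529) had 8, 11, 23, 11 and 23 reads in the controls (0.400, 0.428, 0.922, 0.436 and 0.920 CPM). After the clinical drug it had 43, 37, 33, 27 and 22 reads (2.11, 1.90, 1.34, 1.18 and 1.14 CPM). All treated values were above all control values. The log2 fold change was 1.29, SE 0.388, with an adjusted p of 0.0419. With run as a block it was 0.64 and within the 2 shared runs 0.75, neither called and both resting on controls CTL113 and CTL212. Without control CTL212 it was 1.47 (adjusted p 0.0342) and still called. Under the treatment-field groups, where the Beta-Ac libraries take the place of the clinical drug, it was -0.02. The adjusted p ran from 0.0136 to 0.988 over 20 alternatives.

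CDH3, here at low counts, had 6.36, 5.64, 4.25, 5.04 and 31.3 CPM in the controls and 3.88, 3.14, 3.56, 6.47 and 4.96 CPM after the clinical drug. Apart from control CTL212 the groups overlapped. CDH3 had a log2 fold change of -1.26, SE 0.482, with an adjusted p of 0.0930, and without control CTL212 it was -0.27 and not called. The call ended in 11 of 19 alternatives, with the adjusted p from 0.0444 to 0.483, and DESeq2 gave no p for CDH3. Control CTL212 held 782 of the CDH3 reads, where the other 14 libraries held 61 to 155.

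**Figure D3:**
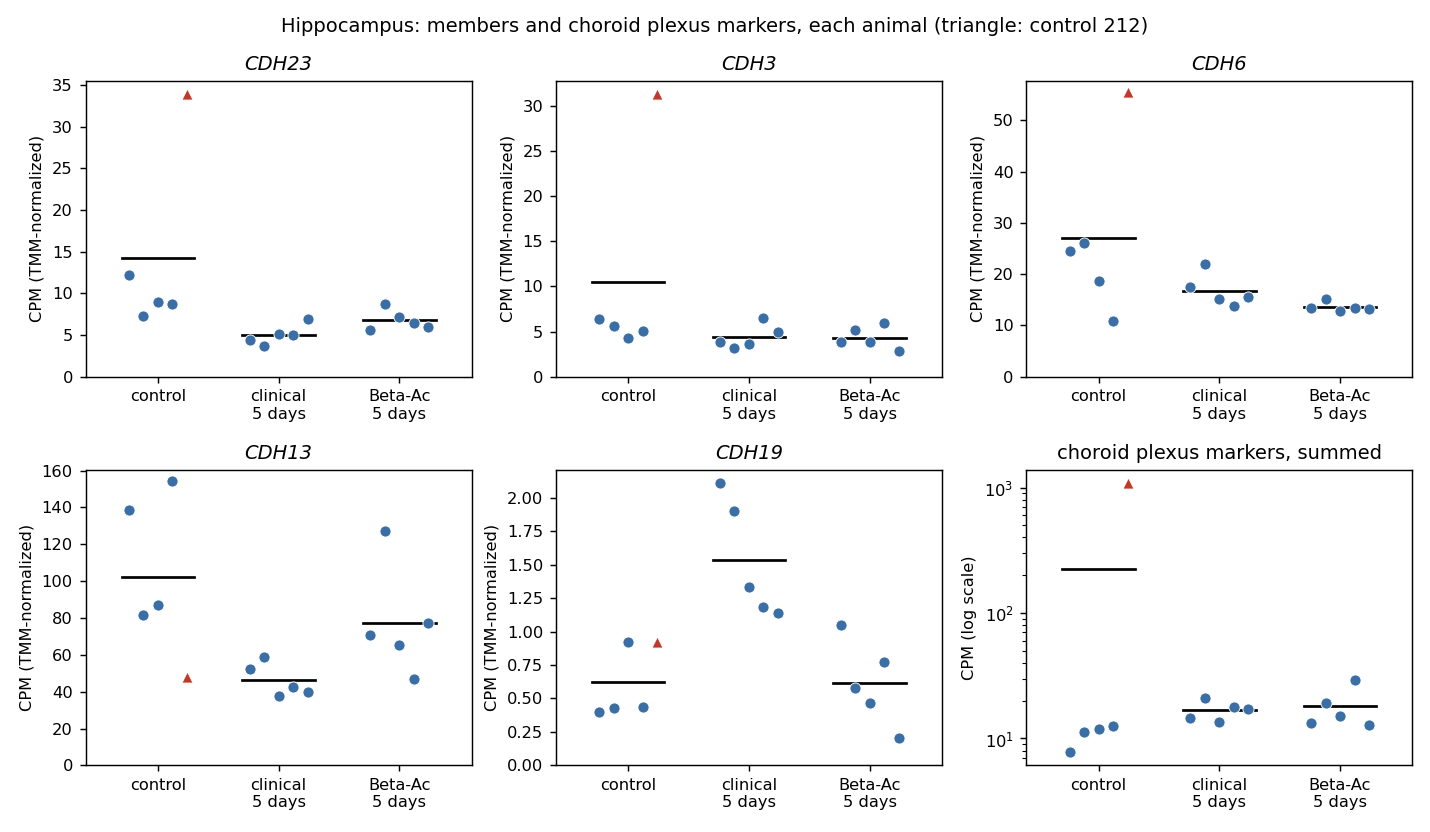
CPM of CDH23, CDH3, CDH6, CDH13 and CDH19 in each of the 15 hippocampus libraries, and the summed CPM of choroid plexus markers on a log axis; points are animals, lines group means and the red triangle control CTL212. Control CTL212 has 34.0 CPM of CDH23, 31.3 of CDH3 and 1084 of the markers.

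The kidney cadherin CDH6 had 24.5, 26.1, 18.7, 10.9 and 55.5 CPM in the controls. It had 17.5, 22.1, 15.1, 13.7 and 15.6 CPM after the clinical drug. Control CTL212 was again the highest and control CTL209 the lowest of all 15. CDH6 was not called by edgeR (-0.69, adjusted p 0.131), but it was by DESeq2 and in the fit with run as a block. Without control CTL212 the value was -0.26 (adjusted p 0.429), and the other 4 controls averaged 20.1 ± 6.89 CPM (SD, n = 4). R-cadherin (CDH4), of retina and brain, was lower at 27.2 ± 3.75 CPM against 39.2 ± 16.1 CPM in controls (SD, n = 5 each). It had a log2 fold change of -0.53 and an adjusted p of 0.157, and was called without control CTL212. Without that control, 4 members were called (CDH13, CDH19, CDH23 and CDH4), beside 7.84% of all genes.

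Cell markers moved in the same comparison, and their part in the results was not tested apart from the values without control CTL212. Choroid plexus markers were called lower for 3 of 4 genes, meninges markers for 2 of 4, mesenchyme markers for 3 of 7, endothelial markers for 1 of 7, mesothelial markers for 1 of 3 and striatum markers for 1 of 4. These values include control CTL212, which had the highest choroid plexus, meninges, mesenchyme and endothelium sums of all libraries. Astrocyte markers were called higher for 1 of 5 genes (median 0.44) and microglia markers for 1 of 2 (median 0.45). Of the partner lists, edgeR called 1 of 9 catenins lower, CTNNAL1 (-0.76, adjusted p 0.0974), and 1 of 8 junction adaptors, NECTIN1 (-0.61, adjusted p 0.0615). It called 0 of 8 desmosome genes, 0 of 14 other superfamily genes and 0 of 9 regulators. The list medians were -0.32, -0.14, 0.06, -0.33 and 0.15 in that order.

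For Beta-Ac minus control, with the same 5 controls, edgeR called 0% of all genes (0 of 17390) and 0 of 37 members, while DESeq2 called 0.857% of all genes (149) and 2 members, CDH6 and CDH23. An unadjusted p under 0.05 was found for 4 members and 12.3% of all genes. CDH6 had 13.4, 15.2, 12.8, 13.5 and 13.3 CPM in libraries BAC128, BAC130, BAC136, BAC235 and BAC237. These lay below all controls but CTL209. That gave -0.99 with an adjusted p of 0.252, and -0.56 without control CTL212.

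CDH23 had 5.63, 8.73, 7.18, 6.41 and 5.94 CPM after Beta-Ac and overlapped with the controls. Its value was -1.07 with an adjusted p of 0.268, and -0.46 without control CTL212. CDH3 had 3.86, 5.15, 3.80, 5.99 and 2.88 CPM, with -1.28 and an adjusted p of 0.320, and -0.29 without control CTL212. CDH8, the fourth, stood at -0.38. The member median was -0.07 and that of all genes -0.01, and 23 of 37 members and 51.5% of all genes were lower. In the partner lists edgeR called 0 genes. Choroid plexus markers were lower for 4 of 4 genes (median -4.28), mesenchyme markers for 7 of 7 (median -0.36) and oligodendrocyte markers for 5 of 5 (median -0.67). Interneuron markers were lower for 0 of 4 (median 0.19) and muscle markers for 0 of 3 (median 0.38). Of these markers edgeR called 0, and their part in the members' values was not tested. The marker values include control CTL212, whose choroid plexus sum was far above that of every other library, the other controls among them. No marker values without it are given.

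For the clinical drug minus Beta-Ac in hippocampus, edgeR called 0% of all genes and 0 members, and DESeq2 called 1.07% of all genes (186) and 0 members. At an unadjusted p under 0.05 there were 6 members and 13.5% of all genes. CDH19 had 1.05, 0.577, 0.463, 0.773 and 0.204 CPM after Beta-Ac, all below the clinical drug libraries. The difference was 1.31 with an adjusted p of 0.226. CDH13 had 70.7, 127, 65.3, 47.1 and 77.3 CPM after Beta-Ac, overlapping with the clinical drug, with -0.74 and an adjusted p of 0.287. Without BAC130 the CDH13 value was -0.49. In the same comparison oligodendrocyte markers were higher for 5 of 5 genes (median 0.61). Endothelial markers were lower for 7 of 7 (median -0.11) and meninges markers for 4 of 4 (median -0.78). Muscle markers were lower for 3 of 3 (median -0.73) and interneuron markers for 4 of 4 (median -0.45). EdgeR called 0 of these genes, and their part in the members' values was not tested.

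CDH15, the muscle cadherin, had 0.542, 0.906, 0.926, 3.79 and 1.09 CPM after Beta-Ac and 0.737, 0.257, 0.445, 0.481 and 0.723 CPM after the clinical drug. The high library was BAC235, with 98 reads against 5 to 32 in the other 14. On the log2 scale the change was -1.45 (adjusted p 0.238), and -0.71 without BAC235. BAC235 also had the lowest PCDH9 (43.9 CPM), PCDH17 (32.6 CPM) and PCDH11X (3.86 CPM) of the 15. The remaining members at an unadjusted p under 0.05 were CDH4 (-0.57), PCDH1 (0.24) and CDH10 (0.23). Without BAC235, PCDH1 was at 0.16 (unadjusted p 0.113) and CDH10 at 0.18 (unadjusted p 0.115).

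PCDH18 and PCDH12, called in early lung, were not called in hippocampus. PCDH12 stood at 17.0 ± 4.29 CPM in controls, 16.8 ± 2.69 after Beta-Ac and 20.8 ± 2.18 after the clinical drug (SD, n = 5 each). Control CTL212, at 23.2 CPM, was the only control inside the clinical range of 18.3 to 23.5 CPM, and the other 4 ran from 11.3 to 17.96 CPM. The log2 fold change for the clinical drug was 0.29 with that control (adjusted p 0.259) and 0.42 without it (adjusted p 0.0831), short of the fold threshold.

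PCDH18 stood at 43.3 ± 9.52 CPM in controls, 57.9 ± 20.1 after Beta-Ac and 47.3 ± 15.1 after the clinical drug (SD, n = 5 each). BAC235, at 22.5 CPM, was the only Beta-Ac library not above every control. The other 4 ran from 62.3 to 72.5 CPM, and the controls from 32.7 to 56.6 CPM. For Beta-Ac the log2 fold change was 0.42 with BAC235 (adjusted p 0.557) and 0.62 without it (adjusted p 0.264), and neither was called. Hippocampus was sampled at 5 days alone, so an early change there was not measured.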

How the data were processed

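The gene counts deposited by the authors were used as whole reads. The paper names Bowtie 2, MMUL1.0 and featureCounts, and the submitters' notes name Bowtie 1.2.1.1 with featureCounts 1.5.1 for lung. Counts were fitted with edgeR 4.0.16 (R 4.3.3, limma 3.58.1), TMM and the quasi-likelihood F-test, two-sided, with 1 fit per tissue. Adjusted p-values are Storey q-values for lung, while hippocampus used Benjamini-Hochberg, so the shares called in the 2 tissues are not like for like. Fold changes used a prior count of 0.125. DESeq2 1.42.0 was the second test. Intervals and floors cover counting and replicate spread of these libraries alone.

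Named members were those called, up to 4 per comparison with the lowest p under 0.05 and a fold of at least 1.5, the member of each subfamily with the most reads, and textbook cell-type cadherins. Other members named were chosen after their values were seen. Members and lists were chosen with earlier results of these data known. Alternatives were RLE scaling, edgeR's filterByExpr, no filter, DESeq2, the compared groups alone, the other adjustment, each library left out, and in hippocampus run as a block, the 2 shared runs and treatment-field groups.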

Additional observations from a re-analysis of the deposited data

Results flagged for a closer look

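A gap check of 15 hippocampus members in 3 groups (45 groups of 5 libraries) compared the distance of the most extreme library from its neighbour with the group's range. Chance alone would pick about 1 group in 20, and 6 were picked. Some of these members were chosen for their p-values, and the groups share libraries, so the number picked is not a test. CTL212 was high for CDH23 (34.0 CPM) and CDH3 (31.3 CPM) and low for PCDHGB5 (1014 CPM), and it had the highest sum of choroid plexus markers. Without it the controls averaged 9.32 CPM of CDH23 and 5.32 of CDH3. BAC130 was high for CDH6 (15.2 CPM, against 12.8 to 13.5 in the other Beta-Ac libraries) and for PCDH19 (362 CPM). BAC235 was high for CDH15 (3.79 CPM).

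In lung, the clinical drug's effect at 5 days minus that at 4 h, which equals the difference between those groups because the controls cancel, was called for 7 of 35 members, beside 10.4% of all genes. On the log2 scale it was 1.26 for PCDH12, 1.22 for PCDH18, 1.45 for PCDH17, 0.70 for CDH11, 1.61 for CDH20, -0.75 for PCDH9 and -1.49 for CDH8. Of 12 alternatives, the call ended in 7 for CDH11, 7 for CDH20, 6 for PCDH9 and 8 for CDH8.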

How the results depend on the processing

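Member counts, and 38 results of members called or picked by p and fold, were refitted under the alternatives. No refit is given for the calls of partner genes and cell markers. Brackets give the share of all genes called in the same fit. For the clinical drug at 4 h minus control in lung, Benjamini-Hochberg adjustment gave 6 members (6.23%). For the clinical drug minus control in hippocampus, Storey adjustment gave 5 (9.95%). For the clinical drug at 4 h minus Beta-Ac at 6 h, 6 members and 6.74% of all genes were called, and leaving out each library gave from 3 (3.79% and 4.86%) to 8 (11.3%). For the clinical drug at 5 days minus 4 h, 7 (10.4%) were called, 3 with no read filter (5.44%), 4 with Benjamini-Hochberg adjustment (8.22%), and from 4 (7.15% to 8.47%) to 8 (13.8%) with a library left out. For Beta-Ac at 5 days minus 6 h, 0 (0.261%) were called, 1 with no read filter (0.243%), 1 by DESeq2 (1.05%), and from 0 (0.0285% to 0.0625%) to 1 (0.358% and 0.558%) with a library left out. In hippocampus, the clinical drug minus control had 4 (7.86%), then 1 in the 2 shared runs (1.33%) and 0 with treatment-field groups (0%), where CDH19 turned from 1.29 to -0.02. Beta-Ac minus control had 0 (0%), then 2 by DESeq2 (0.857%) and 4 with treatment-field groups (7.86%). Without BAC128 that comparison had 0 members called (1.06%). The treatment-field counts, and the -0.02 of CDH19, are the main values of the other drug, because that grouping only swaps the drug names. Leaving out CTL212 and BAC235 together was chosen after seeing the data and gave 4 (8.79%) for the clinical drug.

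Lung groups held 3 animals each, which leaves small changes uncalled. Drug mix, dose and early time differed together. The fetuses at 4 h also come from another number series (such as 15-81) than those at 6 h and 5 days (such as 16-123, 17-254 and 16-115). What the series stands for is not given, and in those comparisons it cannot be told apart from group. Hippocampus runs and treatment were partly joined, and the drug labels there conflict. No paired analysis was possible because the groups compared shared no animals. The 9 animals with both tissues were not used to compare tissues. The clustered protocadherins share exons, and symbols were missing for many identifiers. No protein measurements or cell counts were used here.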
